A study of Drosophila melanogaster with 2 samples.

Results

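Of the 4222 Snail-eGFP peaks in the list called on the pooled replicates, 1081 had their summit at a divergent, head-to-head promoter, which is 25.6% of the 4221 peaks on the 6 main chromosome arms. A head-to-head pair was taken as the 5'-most start sites of protein-coding genes on opposite strands that point away from each other with a gap of 1 to 500 bp, and a peak belonged to the set if its summit lay within 500 bp of either start site. The annotation held 1701 such pairs, made up by 3481 of 13945 coding genes, with a median gap of 247 bp (quartiles 122 and 338). All values come from 1 group: whole Drosophila melanogaster embryos collected at 0 to 24 h from a transgenic strain, sna-GFP, that makes a Snail protein fused to eGFP. Chromatin, sonicated to fragments of 200 to 800 bp, was immunoprecipitated through the GFP tag in 2 biological replicates; an anti-GFP antibody is what the description names, although the antibody tag says sna. No control samples were analysed here, and in whole embryos a site used strongly by few cells and a site used weakly by many cannot be told apart.

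Snail, a repressor with zinc fingers, acts in the presumptive mesoderm of the early embryo and is known for its part in gastrulation and for binding E-box sites in enhancers. Head-to-head promoters are a different kind of place. In the compact fly genome many housekeeping genes stand back to back and are transcribed away from a shared stretch of open chromatin, and such promoters often carry CGATA sites, which the insulator protein BEAF-32 binds, or the longer TATCGATA, the element of the replication-related factor DREF. The classes compared below are the peaks at head-to-head pairs and, as the nearest like class, 1465 peaks within 500 bp of a solitary start site, meaning a coding gene with no start site of another coding gene within 1000 bp on either strand.

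The bases between the start sites are shown for 5 of the pairs with the strongest peaks, because they make visible how short the shared stretch is and where CGATA lies in it. They are the plus strand of dm6, from the RefSeq copy of the same Release 6 assembly, read 5′ to 3′ from the base after the minus-strand start site to the base before the plus-strand start site. Capitals mark CGATA, and TATCG, which is CGATA on the other strand. Mic26-27, a subunit of the MICOS complex of mitochondrial cristae, and CG5916 are divided by chr3R:16146856-16147028. The stretch between janA and the Sry-alpha and Sry-beta cluster, which includes the cellularization gene Sry-alpha, is chr3R:30039534-30039718. The ubiquitin ligase gene Ube3a and CG7600 flank chr3L:11210584-11210785. CG1105 and CG1965 flank chr3R:7067137-7067400. MED7, a subunit of the Mediator complex, and Cap-H2, a subunit of condensin II, flank chr3R:10761033-10761309.
Mic26-27 and CG5916: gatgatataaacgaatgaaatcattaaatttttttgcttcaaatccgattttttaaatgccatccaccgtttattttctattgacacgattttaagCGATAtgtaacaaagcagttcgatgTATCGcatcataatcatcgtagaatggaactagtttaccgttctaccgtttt
janA and Sry-alpha/Sry-beta: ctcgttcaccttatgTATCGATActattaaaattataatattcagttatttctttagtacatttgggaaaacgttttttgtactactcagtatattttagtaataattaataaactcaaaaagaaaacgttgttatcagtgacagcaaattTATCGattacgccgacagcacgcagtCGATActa
Ube3a and CG7600: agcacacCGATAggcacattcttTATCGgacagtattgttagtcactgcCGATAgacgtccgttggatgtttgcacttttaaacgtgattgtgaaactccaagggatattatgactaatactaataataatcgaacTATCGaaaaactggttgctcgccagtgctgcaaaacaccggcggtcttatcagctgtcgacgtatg
CG1105 and CG1965: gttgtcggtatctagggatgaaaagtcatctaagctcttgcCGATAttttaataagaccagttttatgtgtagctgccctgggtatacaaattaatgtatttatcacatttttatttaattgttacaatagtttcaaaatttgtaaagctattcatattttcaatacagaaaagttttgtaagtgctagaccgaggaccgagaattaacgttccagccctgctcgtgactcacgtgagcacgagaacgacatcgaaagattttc
MED7 and Cap-H2: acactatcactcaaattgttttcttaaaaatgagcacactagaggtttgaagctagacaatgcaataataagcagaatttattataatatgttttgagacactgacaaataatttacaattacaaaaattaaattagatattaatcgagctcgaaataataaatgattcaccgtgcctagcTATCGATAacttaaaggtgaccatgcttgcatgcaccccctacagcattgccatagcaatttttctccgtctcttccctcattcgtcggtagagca
CGATA occurred 2 times between Mic26-27 and CG5916, 4 times in the janA stretch, 4 times between Ube3a and CG7600, 1 time between CG1105 and CG1965 and 2 times between MED7 and Cap-H2, counting both strands. In the janA and MED7 stretches 2 of those copies make up 1 TATCGATA, which in both lay more than 100 bp from the summit of the peak.

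By way of contrast, the sequences of 2 pairs with peaks but no CGATA between the start sites follow. Usp5, which codes for a deubiquitinating enzyme, and BtbVII, which codes for a BTB domain protein, flank chr3L:3148359-3148645, and the peak of 596 authors' signal units there had its summit 104 bp outside the gap, in Usp5. The sequence holds GGTCACACT, the core of the promoter motif of the factor M1BP, 1 time. The cell cycle inhibitor gene rux and MCTS1 flank chrX:6037801-6037891, and the summit of the strongest peak assigned to them, with a signal of 335, lay 396 bp outside the gap, in rux.
Usp5 and BtbVII: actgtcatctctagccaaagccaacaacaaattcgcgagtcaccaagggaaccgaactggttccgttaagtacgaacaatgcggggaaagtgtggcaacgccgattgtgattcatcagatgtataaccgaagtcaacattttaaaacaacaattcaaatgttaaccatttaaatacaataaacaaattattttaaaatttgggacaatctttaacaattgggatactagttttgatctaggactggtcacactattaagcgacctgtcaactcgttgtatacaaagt
rux and MCTS1: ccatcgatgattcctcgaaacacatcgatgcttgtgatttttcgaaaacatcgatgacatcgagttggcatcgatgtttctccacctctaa
Within 100 bp of those summits, and so outside the gaps, CGATA was present 3 times at Usp5 and 3 times at rux.

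A summit lay within 500 bp of 899 of the 1701 pairs, or 52.9% (95% Wilson interval 50.5 to 55.2). Counted by start site, 1801 of the 3481 start sites in pairs had one, or 51.7% (50.1 to 53.4), against 1261 of 8252 solitary start sites, or 15.3% (14.5 to 16.1), and 25.7% of all coding start sites. The intervals of the classes are far apart. A start site in a pair can be counted through a summit nearer to its partner, so the shares were also taken within 100 bp, where they were 25.5% of start sites in pairs and 9.95% of solitary start sites. At short gaps a summit can still lie within 100 bp of both start sites, so the narrower window does not remove such counts. Both replicates, each in its own list, showed the same order. In the list of replicate 1, 42.5% of start sites in pairs and 11.9% of solitary start sites had a summit within 500 bp, and in that of replicate 2 the shares were 33.3% and 8.71%. Intervals here and below cover counting error over regions only, and regions of 1 group of embryos are not replicates, so no p-values are given. Both start sites of a pair can be counted through the same summit, which makes intervals over start sites in pairs too narrow. On the arms, 58.9% of pairs had a peak on X, 57.5% on 2R, 55.5% on 3R, 49.0% on 3L and 45.5% on 2L. On the small chromosome 4 the count was 0 of 5 pairs, with an interval that reaches 43.4%. Among solitary start sites the shares on the large arms were closer together, from 14.5% on 3L and 3R to 16.9% on X.

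The share of pairs with a peak was between 48.5 and 59.0% at gaps up to 400 bp, with no steady order, and was smaller for wider gaps. In bins of 100 bp it was 59.0% (53.8 to 64.1) at gaps of up to 100 bp, 48.5% (43.0 to 54.1) up to 200 bp, 52.9% (48.4 to 57.4) up to 300 bp, 54.0% (48.7 to 59.1) up to 400 bp and 47.3% (40.8 to 53.9) up to 500 bp, and the intervals of neighbouring bins overlap. Beyond the 500 bp of the definition it was 43.0% at gaps of up to 1000 bp and 38.2% at gaps between 1000 and 2000 bp. A pair is counted through a summit near either of its 2 start sites, and these windows overlap less the wider the gap is, so the pair shares are not set against those of single start sites. Counted by start site, the shares were 58.9% (55.2 to 62.5), 48.2% (44.3 to 52.2), 52.1% (48.9 to 55.3), 51.3% (47.6 to 54.9) and 42.5% (38.0 to 47.2) in the 5 bins up to 500 bp, 26.9% (24.5 to 29.5) at gaps of up to 1000 bp and 24.2% (22.1 to 26.5) up to 2000 bp, against 15.3% (14.5 to 16.1) of solitary start sites. A start site can still be counted through a summit nearer to its partner, less so the wider the gap, so part of this fall can come by construction. With a summit within 100 bp of either start site, the shares of pairs were 51.6%, 42.1%, 32.2%, 32.5% and 36.4% in the 5 bins. Beyond the limit they were 34.8% at gaps above 500 and up to 600 bp, 29.8% above 500 and up to 1000 bp, and 26.6% above 1000 bp. In the list of replicate 1 the shares of pairs with a summit within 500 bp were 47.6%, 41.7%, 44.3%, 42.1%, 35.9%, 33.9% and 32.1%. In that of replicate 2 they were 35.2%, 32.7%, 35.8%, 31.9%, 31.4%, 27.7% and 24.6%. Just inside the limit, the 132 peaks at pairs with gaps above 400 bp had a median signal of 117, and just outside it the 108 peaks at pairs with gaps above 500 and up to 600 bp had 111.

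**Figure D1:**
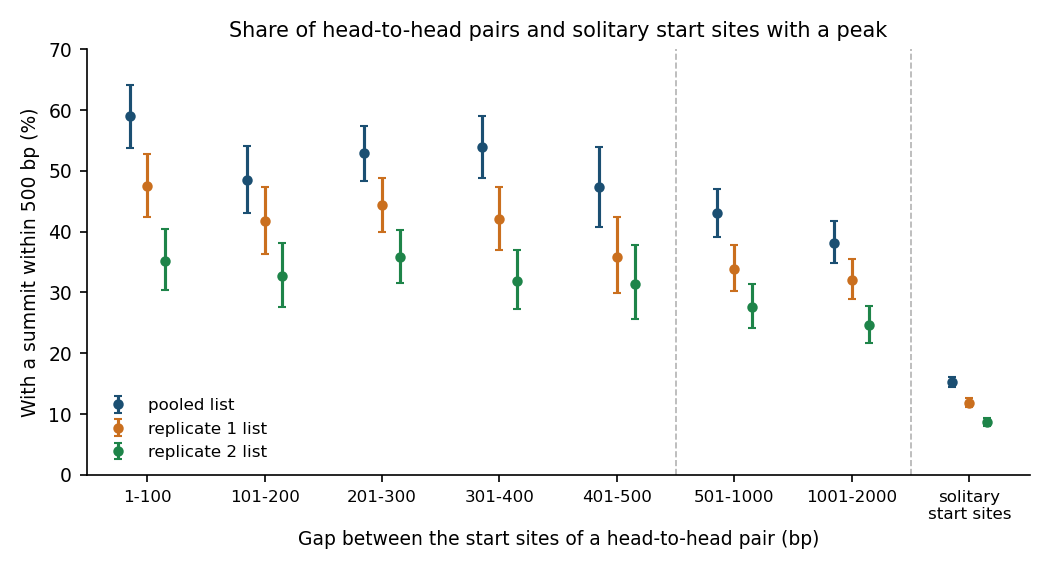
Percent of head-to-head pairs with a summit within 500 bp of a start site, by the gap in bp, and of solitary start sites at the right, in the pooled list and in each replicate's own list. Points are shares and bars are 95% Wilson intervals; the first dashed line marks the 500 bp limit of the definition, and the shares are lower at gaps beyond it. A pair is counted through a summit near either of 2 start sites and a solitary start site has 1 window, so the heights of pairs and of the 15.3% of solitary start sites in the pooled list are in unlike units.

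Summits sat in the gap more often than not, and where in the gap depended on its width. Of the 1081 summits 605 lay between the start sites, or 56.0% (53.0 to 58.9), 206 lay on the side of the minus-strand gene and 270 on that of the plus-strand gene. The plus-strand side is that of higher coordinates, where most weaker peaks of a site had their summit, as given below. What these add to the 270 was not tested. The share between the start sites was 30.9% at gaps of up to 100 bp, 56.4% up to 200 bp, 71.0% up to 300 bp, 64.1% up to 400 bp and 53.8% up to 500 bp, each bin holding the gaps above the one before. A gap of few bases leaves little room for a summit, and the lowest share belongs to it. The median distance from the closer start site was 34, 47, 95, 104 and 76.5 bp over the same bins, and 74 bp over all members. For summits inside the gap, the share in its central part, as long as the part on either side of it, was 22.7%, 32.0%, 59.6%, 40.9% and 15.5% over the bins. At gaps between 200 and 300 bp most such summits thus stood near the midpoint, whereas above 400 bp most stood towards either start site. Over the same bins the median signal was 133, 137, 163, 117 and 117, so that the highest belonged to gaps between 200 and 300 bp, while the quartile ranges of all bins overlap.

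**Figure D2:**
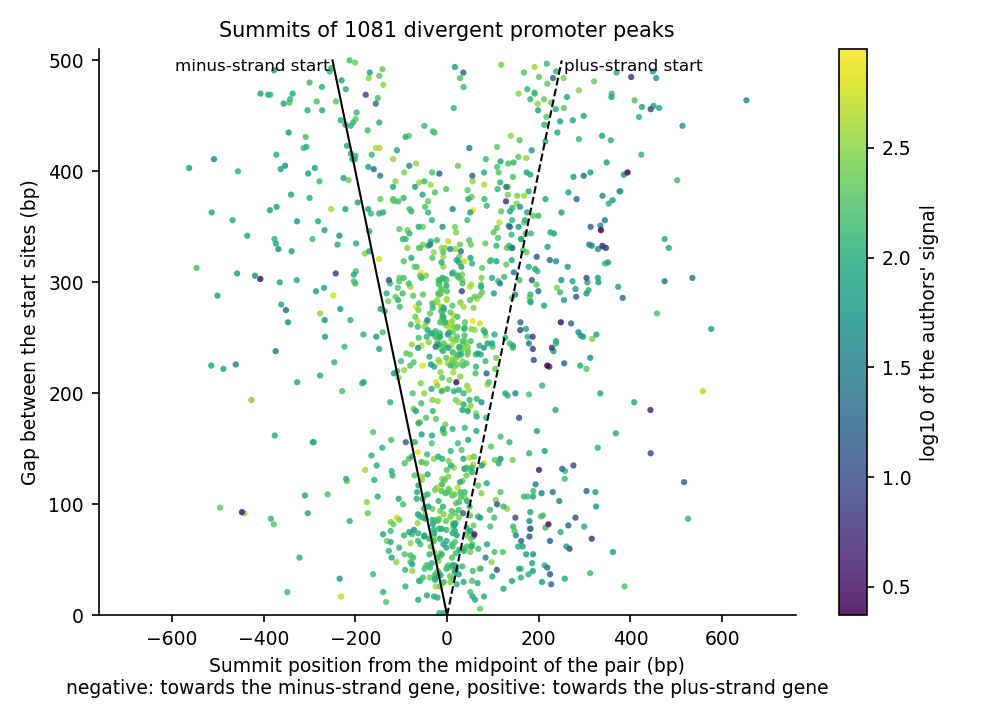
Position of the summit of each of the 1081 peaks from the midpoint of its pair (x, bp) against the gap between the start sites (y, bp), coloured by log10 of the authors' signal. The solid and dashed lines mark the minus-strand and plus-strand start sites; 605 summits lie between the lines, and they gather at the midpoint for gaps between 200 and 300 bp.

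Measured from the closer start site in the direction of that gene, 55.4% (52.4 to 58.4) of divergent promoter summits lay upstream, with a median of 11 bp upstream, and 61.4% (58.9 to 63.9) of solitary promoter summits did, with a median of 24 bp. A summit at a pair was measured to the closer of 2 start sites, so the gap limits how far upstream it can lie, and these values cannot be read as a difference in placement. Members up to 200 bp from a start site had higher signals than those farther away. The 681 members within 100 bp of a start site had a median signal of 146 and the 312 members between 100 and 200 bp had 122, whereas the 56 up to 300 bp, the 24 up to 400 bp and the 8 up to 500 bp had 82.3, 84.1 and 79.2. Weaker peaks of a site with several overlapping peaks were 69, 77, 23, 6 and 3 of these members. Over the strongest peak of each site alone, the medians were 159 (n = 612), 164 (n = 235), 91.1 (n = 33), 116 (n = 18) and 123 (n = 5), so the first 2 bins no longer stood in order of distance and the last 2 rest on few peaks. Just outside the window, 12 peaks up to 600 bp away had 82.3.

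Several members could belong to 1 pair. Of the 893 pairs that were the closest pair of a member, 715 had 1, 168 had 2 and 10 had 3, and 6 members lay near more than 1 pair. In 91 of the 178 pairs with more than 1 member, a summit lay closer to each start site. These were seldom separate sites, since peaks of the deposited list can overlap each other, and in 11 pairs only did 2 or more members stand apart. In all, 178 members belonged to a site of overlapping peaks with a stronger one, and their median signal was 38.5, against 153 for the 903 members that were the strongest of their site. The weaker member had its summit at a higher genome coordinate than the strongest peak of the site in 166 of the 178 cases, or 93.3%, at a median distance of 204 bp, and 161 of the 178 had a width of exactly 516 bp, which is also the median width of the members. How the weaker members came about was not tested. At TAF1B, a factor of RNA polymerase I, and the metalloprotease gene Invadolysin, for instance, the strongest of 3 peaks, whose summit was 71 bp from TAF1B, reached 308 signal units, and the others had 166 and 21.5. The other pairs with 3 members and the strongest peaks were rux and MCTS1, the nuclease gene Tudor-SN and mRpL17, CG11122 and the proteasome ATPase gene Rpt3, and ArgRS and CG8578, with highest signals of 335, 277, 188 and 187.

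Signal at divergent promoters ranged widely and was slightly above that at solitary ones. Its median was 132 (quartiles 85.7 and 221) over the 1081 members, with 2.34 as the lowest and 889 as the highest value, against 119 (82.7 and 193) at solitary promoters and 90.7 at the 1206 peaks away from 5'-most coding start sites. In the replicates' own lists the medians were 94.1 at divergent and 86.7 at solitary promoters in replicate 1, and 79.8 and 75.0 in replicate 2. These differences are small beside the spread, and the quartile ranges overlap almost entirely. Of divergent promoter peaks, 35.7% lay above the upper quartile of the pooled list, a signal of 173, against 29.6% of solitary promoter peaks. The strongest 10% of peaks began at 321 at divergent and 295 at solitary promoters, and the highest values were 889 and 1152. Of the strongest 1000 peaks of the list, 368 were divergent and 408 solitary promoter peaks, or 34.0% and 27.9% of each class. Of the strongest 100, 38 were divergent and 48 solitary promoter peaks, which came to a like share of each class, 3.52% and 3.28%. Signal was hardly related to the gap across members (Spearman's rho -0.07, n = 1081, across peaks that share the same libraries).

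The strongest member stood between RpL32, a protein of the large ribosomal subunit, and CG7943, at chr3R:30046059-30046513, with a gap of 309 bp. Its signal was 889 in the pooled list, 511 in replicate 1 and 388 in replicate 2. Mic26-27 and CG5916, whose bases are printed above, had 847 in the pooled list, 470 in replicate 1 and 369 in replicate 2. Both peaks were far above the member median of 132 in the pooled list, and both summits lay between the start sites, 98 bp from RpL32 and 25 bp from Mic26-27. TAF1C-like and MESK2, with a gap of 365 bp, had 812, 430 and 359 in the pooled list and replicates 1 and 2. At janA and the Sry genes the values were 730, 443 and 292, and at Ube3a and CG7600 they were 704, 391 and 301.2. The order of the pooled list was not kept in full by the replicates, in which janA was above TAF1C-like in replicate 1 and below Ube3a in replicate 2.

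The next 10 pairs had signals of 704 to 567. They were the adducin gene hts with the calpain gene CalpA, CG1105 with CG1965, MED7 with Cap-H2, the co-chaperone gene Dpit47 with the transcription factor gene Adf1, the heparan sulphate epimerase gene Hsepi with PGAP3, the proteasome subunit gene Prosalpha7 with CG1671, wmd with the cytochrome c oxidase subunit gene levy, Usp5 with BtbVII, CG11885 with CG13692, and Mppe with the cohesin-associated gene pds5. All 15 strongest members overlapped a peak in each replicate's own thresholded list. Replicate 1 was above replicate 2 at each of the 15, and at 81.7% of the 1079 members with a value in both, but the scales of the replicates' lists are not known to be the same. Summits of 13 of the 15 lay between the start sites, and 13 had CGATA within 100 bp of the summit; the peaks at CG1105 and at Mppe had none there. For CG1105 and CG1965 the copy printed above stands farther from the summit than that. So do both copies printed for MED7 and Cap-H2, and the 1 copy within 100 bp of that summit is not among those printed.

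**Figure D3:**
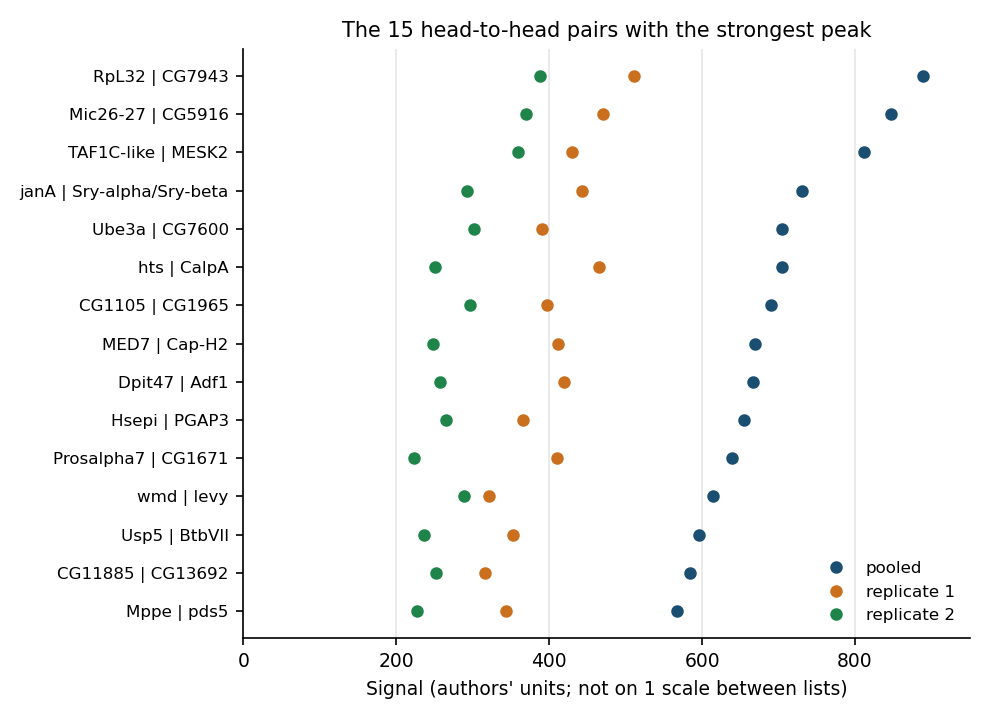
Signal (x, authors' units) of the strongest peak at the 15 head-to-head pairs with the highest pooled signal, in the pooled list and in the candidate list of each replicate, with the minus-strand gene named first. Pooled values run from 889 at RpL32 to 567 at Mppe, and replicate 1 lies above replicate 2 at every pair.

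The replicates supported divergent promoter peaks more often than the list as a whole. Of the 1081 members, 611 overlapped a peak in both replicates' own thresholded lists by at least 1 bp, or 56.5% (53.5 to 59.4), against 50.7% (48.2 to 53.3) of solitary promoter peaks and 44.4% of all peaks. A further 224 overlapped a peak of replicate 1 only, 60 of replicate 2 only and 186, or 17.2%, a peak of neither. Their median pooled signals were 205 for both, 106 for replicate 1 only, 102 for replicate 2 only and 79.3 for neither. Of the members above the upper quartile of the list 97.2% were in both replicates' lists, while of those between the median and the upper quartile 51.5% were, of those between the lower quartile and the median 16.2%, and of those below the lower quartile 28.6%. For solitary promoter peaks in the same ranges of signal the shares were 95.8%, 50.6%, 12.6% and 26.6%. Within each range the intervals of the 2 classes overlap, so at like signal their support was close. A weaker member can overlap the same replicate peak as the stronger peak of its site, and then shares its support. At ArgRS and CG8578, members with pooled signals of 187, 84.9 and 6.15 all counted as in both lists. What this adds to the 28.6% was not tested. With overlapping peaks merged, 56.5% of members were in both lists. Replicate 1 had 2876 thresholded peaks and replicate 2 had 2225, which bounds what each list can overlap, and divergent promoters took 840 (29.2%) and 676 (30.4%) of them. Across members the signals of replicate 1 and replicate 2 had a Spearman's rho of 0.83 (n = 1079), and across solitary promoter peaks 0.78 (n = 1445). Overlapping peaks of a site can carry the same replicate values, so some values are counted more than once.

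**Figure D4:**
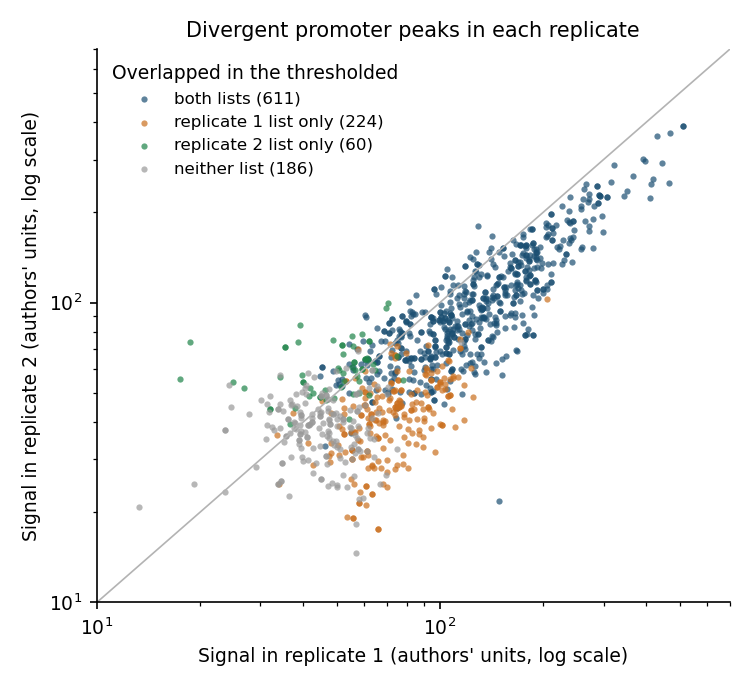
Signal of each divergent promoter peak in replicate 1 (x) and replicate 2 (y), both in authors' units on log scales, coloured by the replicates' thresholded lists that overlap it. The grey line marks equal values; the 611 peaks found in both lists take up the upper right, and the 186 found in neither gather at the lower left.

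The strongest members that were in neither replicate's own list were much weaker than those above. They stood at CG17597 and ScpX, with a pooled signal of 187, at Ire1, a sensor of the unfolded protein response, and the rRNA methyltransferase gene Mrm2, with 139, at Smyd4-1 and the haem synthesis gene Urod, with 135, at CG6961 and S6KL, with 124, and at the glycosylation gene wol and Scgalpha, with 123. In the replicates' candidate lists the peak at ScpX had 115 in replicate 1 and 74.2 in replicate 2, and the others had 63.4 to 70.4 in replicate 1 and 49.6 to 59.4 in replicate 2.

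CGATA lay near most divergent promoter summits. Within 100 bp of the summit, on either strand, 746 of 1081 members held it, or 69.0% (66.2 to 71.7), against 61.8% (59.3 to 64.2) of solitary promoter peaks and 55.1% of all peaks. Of the 469 peaks at other coding start sites, neither in a pair nor solitary, 66.7% (62.4 to 70.9) held it, an interval that overlaps that of the members. In windows of the same length CGATA stood at 60.7% of the midpoints of pairs with a summit, 32.0% of the midpoints of pairs with no summit and 39.4% of all coding start sites. Midpoint windows are not centred on a summit, so the midpoint shares are to be set against each other. TATCGATA holds CGATA on each strand and counts as 2 copies of it. It was found at 23.3% (20.9 to 25.9) of divergent promoter peaks, 21.6% (19.5 to 23.7) of solitary promoter peaks and 24.1% (20.4 to 28.2) of peaks at other coding start sites. It stood at 18.6% of midpoints of pairs with a summit, 2.74% of midpoints of pairs with no summit and 7.84% of all coding start sites. Divergent promoter summits lay in DNA of lower GC content, with a median of 37.8% in the same windows against 42.3% at solitary promoter summits, and across members signal and GC content had a Spearman's rho of -0.39 (n = 1081). What GC content does to the motif shares was not tested. Between the start sites themselves, GC content was close at pairs with and without a summit, with medians of 35.3% and 35.4%, and CGATA was not: 77.5% of the 887 pairs with a summit and a gap of at least 20 bp held it there, against 39.8% of 791 pairs with no summit.

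Read from the sequence to the peak, CGATA and head-to-head arrangement each went with peaks. Of start sites in pairs, 52.3% had CGATA within 100 bp, against 33.7% of solitary start sites. Where CGATA was present, 69.0% (66.9 to 71.1) of start sites in pairs and 30.5% (28.8 to 32.2) of solitary start sites had a summit within 500 bp. Where it was not, the shares were 32.8% (30.6 to 35.1) in pairs and 7.58% (6.91 to 8.31) at solitary start sites. A start site in a pair without CGATA within 100 bp can have a copy elsewhere in the gap or at its partner. It can also be counted through a summit there. These shares therefore do not part the effect of a partner from that of a nearby copy. In the pooled list the class with a partner and without CGATA at its own start site came out close to the class with CGATA and without a partner, with intervals that overlap. With TATCGATA within 100 bp the shares were 84.4% (81.0 to 87.3) in pairs and 70.8% (66.3 to 74.9) at solitary start sites, so the classes were nearest to each other there. In the list of replicate 1 start sites with CGATA had a summit in 59.7% of cases in pairs and 26.8% at solitary sites, and those without in 23.5% and 4.29%. In replicate 2 these 4 shares were 48.7%, 19.8%, 16.4% and 3.11%. In both replicates' lists, start sites with a partner and without CGATA were thus below solitary ones with CGATA. The shares were 23.5% (21.5 to 25.6) against 26.8% (25.2 to 28.5) in replicate 1. In replicate 2 they were 16.4% (14.7 to 18.3) against 19.8% (18.3 to 21.3). Start sites of 1 pair can be counted through the same summit, so the intervals in pairs are too narrow for so close a comparison.

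The same held within each range of gaps. Pairs with CGATA between the start sites had a summit in 82.4%, 67.9%, 69.7%, 67.9% and 55.3% of cases at gaps from 20 bp up to 100, 200, 300, 400 and 500 bp, in bins that do not overlap, and pairs without it in 39.3%, 25.5%, 29.2%, 22.2% and 25.4%. Over all these gaps the shares were 68.6% of 1002 pairs with CGATA and 29.6% of 676 without. They were 59.0% and 19.5% in the list of replicate 1, and 48.9% and 11.7% in that of replicate 2.

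Peaks with CGATA were also the stronger and the better repeated ones. Members with CGATA within 100 bp had a median signal of 164 (quartiles 104 and 250) and those without 85.9 (54.9 and 127). In the replicates' candidate lists the medians were 101.1 with and 63.5 without in replicate 1, and 74.4 with and 49.6 without in replicate 2. Both replicates' own lists overlapped 64.9% of members with CGATA and 37.9% of those without. The 544 members with 2 or more copies had a median of 182. Above the upper quartile of the list 88.9% of members held CGATA and below the lower quartile 35.9%. At solitary promoters the shares were 91.5% and 31.9%, so this gradient was found in both classes. The 178 weaker members of sites had a median signal of 38.5 and summits a median of 204 bp from the strongest peak. With overlapping peaks merged, 74.4% of members held CGATA. What the weaker members add to the gradient and to the medians above was not tested. The copy nearest to the summit lay a median of 30.5 bp away at divergent and 21 bp away at solitary promoters, and was within 20 bp in 39.8% and 49.1% of peaks with a copy. Over all peaks of each class, CGATA was thus more frequent at divergent than at solitary promoter peaks but less closely centred on the summit. Above the upper quartile of signal it was not more frequent. In both classes it was more frequent on the side of lower genome coordinates: within 1 to 200 bp of the summit, divergent promoter peaks had 133 copies per 100 peaks on that side and 120 on the other, and solitary promoter peaks had 114 and 99.8. The weaker members of sites are counted here, and 166 of those 178 had their summit at a higher coordinate than the strongest peak. What they add to the asymmetry was not tested.

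**Figure D5:**
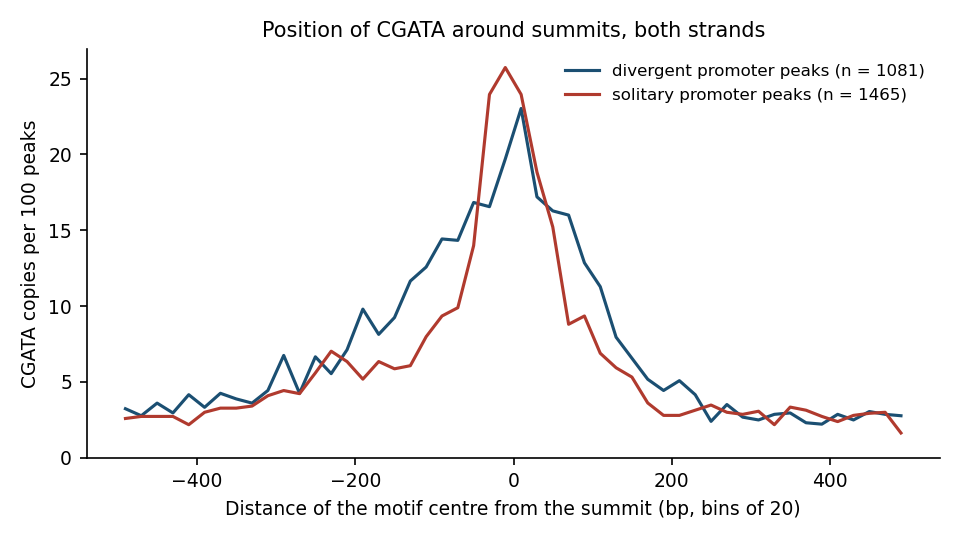
Copies of CGATA per 100 peaks, on both strands, in bins of 20 bp by distance from the summit (x, in genome coordinates) at divergent and at solitary promoter peaks. Both profiles reach their highest value at the summit, 23.0 at divergent and 25.7 at solitary promoter peaks, and the divergent profile is the wider.

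The Snail E-box, CAGGTG, was present at a small share of members. It lay within 100 bp of the summit at 77 of 1081 members, or 7.12% (5.74 to 8.81), against 5.80% (4.72 to 7.12) at solitary promoter peaks and 6.57% (6.17 to 6.99) of all coding start sites, and these intervals overlap. At the midpoints of pairs it was at 4.34% (3.19 to 5.88) of pairs with a summit and 4.36% (3.15 to 6.01) of pairs with none. The median signal was 106 for members with it and 133 for members without it. The strongest members with CAGGTG were at CG11180 and FAM21, a WASH complex subunit, with signals of 488 in the pooled list, 271 in replicate 1 and 216 in replicate 2, at CG15356 and CG15362, with 442, 240 and 184, and at PIG-L, an enzyme of GPI anchor synthesis, and psidin, with 401.3, 239 and 186. All these peaks also had CGATA within 100 bp, with 5, 5 and 1 copies. CAGGTAG, the site of the early activator Zelda, was found at 0.925% of members and 1.03% of coding start sites. CAGCTG, an E-box of bHLH factors, was at 18.8% of divergent and 18.2% of solitary promoter peaks, against 13.8% of coding start sites.

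Other promoter motifs differed more between some of the classes. GAGAG, bound by the GAGA factor, was at 15.7% (13.7 to 18.0) of divergent promoter peaks, against 26.3% (24.1 to 28.6) of solitary promoter peaks. It was at 15.4% (12.4 to 18.9) of peaks at other coding start sites and 50.2% of peaks away from 5'-most coding start sites. Among peaks above the upper quartile of signal it was at 14.2% of divergent and 16.2% of solitary promoter peaks, and among peaks below the lower quartile at 18.4% and 34.7%, so the classes were closer together among the strong peaks. TATAAA, the sequence of the TATA box and also common in AT-rich DNA, was at 29.3% (26.7 to 32.1) of divergent and 21.2% (19.1 to 23.3) of solitary promoter peaks. At midpoints it was at 39.3% of pairs with a summit and 44.1% of pairs with none. GGTCACACT was at 5.64% of divergent and 5.26% of solitary promoter peaks and at 5.29% of coding start sites, with intervals that overlap. A match of any of these 8 motifs is a match of letters and does not show that the factor was bound.

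Most housekeeping gene groups were more often in head-to-head pairs than coding genes at large, with mitochondrial protein import (3 of 15) as the exception, and those in a pair had peaks about as often as any gene in a pair. Of all coding genes 25.0% were in a pair, and 1852 of those 3481, or 53.2%, belonged to a pair with a summit. Of 73 mitochondrial ribosomal protein genes 51 were in a pair, and 28 of the 51 had a peak there. Of 93 cytosolic ribosomal protein genes 36 were in a pair and 24 of those had a peak. The counts in a pair and with a peak were 20 and 11 of 48 proteasome subunit genes, 33 and 17 of 88 genes of the respiratory chain and ATP synthase, 19 and 10 of 32 aminoacyl-tRNA synthetase genes, 17 and 10 of 44 translation initiation factor genes, 28 and 14 of 50 Mediator and general transcription factor genes, 14 and 10 of 31 DNA replication genes, 3 and 3 of 15 genes of mitochondrial protein import, and 4 and 2 of 8 chaperonin genes. The intervals of these shares all reach across 53.2%. Rab GTPases, the switches of vesicle traffic, stood highest among the lists with at least 10 genes in pairs, with 12 of 15, or 80.0%, and an interval of 54.8 to 93.0%.

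Among the named examples, mRpL39 and the proteasome gene Prosbeta2 share 1 promoter, and its peak had signals of 477 in the pooled list, 272 in replicate 1 and 173 in replicate 2. RabX1 and the adjoining gene mi had 536, 287 and 244. The peak of TrpRS, a tryptophan tRNA synthetase, and Vps16A had 467, 265 and 187. CCT7, a chaperonin subunit, and its neighbours Pif1A and Pif1B had 437, 272 and 180, and the peak of Mcm5, a subunit of the replicative helicase, and Art1 had 423, 210 and 197. The respiratory complex I gene ND-SGDH with RhoGAP68F had 360, 175 and 166. All these peaks were in both replicates' own lists and at least 2 times as strong as the member median. Tim10, of mitochondrial import, had the weakest peak of its list, with 86.1 in the pooled list, 42.3 in replicate 1 and 42.4 in replicate 2, and was in neither replicate's own list.

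Genes of the senses and the cuticle were seldom in pairs. Of 179 chemoreceptor genes 14 were in a pair, and 3 of these had a peak, Ir31a, Gr97a and Ir60e, with pooled signals of 142, 71.7 and 70.2; their partner genes share those peaks. Of 70 cuticular protein genes 1 was in a pair, and it had no peak. Outside pairs the counts with a summit within 500 bp were 0 of 165 chemoreceptor genes and 0 of 69 cuticular protein genes, against 1786 of 10464 coding genes, or 17.1%. Of 17 genes tied to Snail in the embryo, such as sna itself, sim, sog and rho, 1 was in a pair: the mesoderm activator gene twi starts 40 bp from CG32833, and no summit lay within 500 bp of that pair. Of the other 16 of these genes 13 had a summit within 500 bp of their start site.

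Most pairs with no peak had a candidate region nearby. Of the 802 pairs with no summit in the thresholded list, 640, or 79.8%, had the summit of a candidate region outside that list within 500 bp, with a median signal of 50.4 for the strongest candidate. Counted by start site, which gives 1 window each, 1287 of 1680 start sites in pairs with no summit had one, or 76.6% (74.5 to 78.6), against 4318 of 6991 solitary start sites with no summit, or 61.8% (60.6 to 62.9). The candidate list holds 105842 regions on the main arms, so many of these are weak. How often a window placed anywhere on the arms would hold a candidate was not tested, so these shares do not by themselves show signal at the pairs. The strongest candidates were at Pop4, a subunit of RNase P, and the kinase gene nmo, with a signal of 596, at Dph4 and Spec2 with RpL13A, with 420, at bocks and CG8312, with 369, at mRpL47 with CG8176 and Kdm3, with 322, and at Ras85D and Rlb1, with 320. These 5 signals were above the median of the members, 132, and the irreproducible discovery rate (IDR, which is low for peaks that rank alike in repeated calls) of the 5 was below the limit of 0.01, at a −log10 value of 5. Of 4360 candidates on the main arms at or below that limit, 139 were not in the thresholded list, and none (0) of the 139 overlapped a peak of it. The sources used here do not say why. With them, 911 pairs, or 53.6%, and 15.6% of solitary start sites would have a peak.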

How the data were processed

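Peak lists of Snail-eGFP ChIP-seq on whole embryos were analysed, in the narrowPeak layout, with coordinates on dm6 according to the labels. Deposited were the authors' ranked lists of candidate regions and thresholded lists, for each replicate alone, for the pooled replicates and for the replicate pair. The signal of a peak is the authors' deposited value; the sources used here do not give its scale, so it is compared within a list. The IDR is the authors' deposited −log10 value, and the pooled list holds peaks with an IDR of at most 0.01. Aligner and caller were not given in the sources used here. Read counts are in no file, which leaves the depth unknown, and the 2 replicates limit the precision. No unused sample column (0) was present.

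Summits were set against 5'-most coding start sites of Ensembl release 115, on 6 main arms. Sequences came from the RefSeq copy of Release 6. A member near several pairs went to the closest. Peaks were shared at an overlap of 1 bp. A replicate's signal at a member is that of its strongest overlapping candidate. Shares have 95% Wilson intervals. Overlaps, assignment and merging were tested on simulated data. Python 3.11.15, numpy 2.4.6, pandas 2.3.3 and scipy 1.17.1 were used.

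Members and lists were chosen with earlier results of these data known. Named are the 15 pairs with the strongest peaks, the 5 pairs with most members, the 5 strongest members in neither replicate list, the 3 strongest with CAGGTG, up to 3 genes of each list, Snail genes in a pair, and the 5 pairs with no peak and the strongest candidate. The sequences are the strongest pairs off 1 arm with gaps of 60 to 300 bp, and 2 with no CGATA. Gene lists went by symbol; the cytochrome P450 reductase gene Cpr was left out of the cuticular list, and Rab3-GAP, Rab3GAP1 and Rab3-GEF out of the Rab list. With 1 group, no contrast between samples was possible.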

Additional observations from a re-analysis of the deposited data

How the results depend on the processing

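Of the comparisons, 2 kept their direction in each setting run: head-to-head pairs had peaks more often than solitary start sites, where a pair offers 2 start sites, and their peaks a higher median signal. Of 60 recomputed values 38 moved: a share out of its interval, a count by over 1.5 times or a ratio by more than its spread between the replicates' lists. In the replicates' own lists, leaving out the other replicate, members numbered 676 to 840, pairs with a peak 33.7 to 43.0%, solitary start sites with a peak 8.71 to 11.9%, summits between the start sites 58.6 to 61.0%, members with CGATA 73.9 to 75.0% and the ratio of median signals 1.06 to 1.09, against 1.11 in the pooled list. In the list made from the replicate pair, these were 48.6% of pairs, 14.1% of solitary start sites, 61.6% of members in both replicates' lists, 73.0% with CGATA and a ratio of 1.15. With peaks above the median signal only, there were 660 members, 37.5% of pairs and 9.84% of solitary start sites had a peak, 69.8% of summits lay between the start sites, 78.2% were in both replicates' lists and 82.7% had CGATA. Gaps of at most 250 bp left 543 members, 49.2% between the start sites and a ratio of 1.19, and gaps of up to 1000 bp gave 50.3% of pairs and a ratio of 1.06. A summit window of 250 bp gave 14.0% of solitary start sites and a ratio of 1.08. Any annotated start site in place of the 5'-most gave 16.5% of solitary start sites, 59.2% of summits between the start sites and a ratio of 1.15. Merging overlapping peaks gave 61.7% between the start sites, 74.4% with CGATA and a ratio of 1.17. The share in both replicates' lists was 39.1% at a reciprocal overlap of 50% and 45.1% with summits within 100 bp. CGATA was at 46.3% within 50 bp and at 84.1% within 200 bp. Stricter lists, windows and overlap rules act by construction; for the other settings the cause was not tested. No paired analysis was possible because there was 1 group. Limits: read depth, the scale of the signal and controls were not analysed here.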
